A study of Drosophila melanogaster with 30 samples.

Results

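Dopamine receptor genes were followed in nuclear RNA of Drosophila melanogaster that the labels assign to the mushroom body, the paired brain structure in which flies store odour memories. The members were chosen by name from the count table: Dop1R1, Dop1R2, Dop2R and DopEcR, 4 of its 17559 genes. Nuclei were pulled out of crosslinked head homogenate through a FLAG tag, poly(A) RNA was selected, and the counts of reads per gene were compared in 30 libraries, 3 for each of 10 groups.

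The groups were, in the line MB477 and likewise in the line MB131, flies with RNA interference (RNAi) against Kdm4B, a histone lysine demethylase, and flies without it, each of them activated or naive, beside activated and naive flies without CsChrimson. CsChrimson is a cation channel that opens in red light, and activated flies were given 5 min of optogenetic activation and then 10 min of rest. Flies of all groups were kept at 25 °C, and the labels give the strain CS10 for every library but 1, an MB477 RNAi naive library with no strain entry. The labels name neither the cells in which the 2 lines act, nor the line of the flies without CsChrimson, nor the flies' age. They do not state that libraries came from separate flies, so each p-value below reflects library-to-library spread alone, part of which may be technical.

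All the receptors belong to the G protein-coupled family. Dop1R1 and Dop1R2 resemble the D1 class of vertebrates: Dop1R1 raises cyclic AMP in Kenyon cells, the principal neurons of this structure, and is required there for learning, and Dop1R2, also called DAMB, is known for its part in forgetting. Dop2R resembles the D2 class, couples to inhibitory G proteins and acts in part as an autoreceptor on dopaminergic neurons. DopEcR responds both to dopamine and to the steroid hormone ecdysone.

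In the dm6 annotation all of these are protein-coding genes on the minus strand. Dop1R1 (FBgn0011582) lies at chr3R:14165379-14214810 and has by far the longest merged exons, 14565 bases. Dop1R2 (FBgn0266137) lies at chr3R:29630304-29659984 with 5164 exon bases, Dop2R (FBgn0053517) at chrX:20004680-20062706 with 6530, and DopEcR (FBgn0035538) at chr3L:4367649-4380387 with 4291. None shares exon bases with another annotated gene, which matters because the sources used here do not say whether counting used strand.

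Libraries held 8291599 to 14344348 counts, of which single receptor genes took 244 to 6651. The MB477 naive libraries stood apart from the other 27 on the first principal component (64.2 to 68.0, against -25.5 to 22.9), and every comparison of MB477 naive flies rests on them. Their Kenyon cell markers, a list of 10 genes that were all detected, summed to 1488 ± 25.3 CPM (counts scaled to a common library total, corrected for composition), against group means from 2309 to 3977 elsewhere. The libraries also held RNA of other head tissues: as group means of the summed level, photoreceptor markers spanned 11460 to 27090 CPM, fat body markers 12200 to 44830, muscle markers 2090 to 6598 and glial markers 2209 to 2898. Only TpnC4 of muscle and Fbp1 of fat body were at 0 in some library. The target of the RNAi could not be checked: Kdm4B had group means of 0.559 to 1.15 CPM, it shares 3815 exon bases with its same-strand neighbour seq and 5718 with CG17724, and its change with RNAi in activated MB477 flies, -1.05 ± 0.67, adjusted p = 0.285 in edgeR's quasi-likelihood test, did not pass. Hr38, a gene induced by neuronal activity, rose with activation in MB131 RNAi flies (1.68 on the log2 scale), in MB477 (1.76) and in MB477 with RNAi (0.42), and did not pass in MB131 (0.34 ± 0.14, adjusted p = 0.0687) or without CsChrimson (0.36 ± 0.15, adjusted p = 0.0764).

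All 4 receptor genes passed the filter on low counts, and all 4 varied over the 10 groups by edgeR's quasi-likelihood F test, with p-values adjusted by Benjamini and Hochberg over the 11457 genes that passed the filter and called under 0.05 (adjusted p from 5.36e-46 for Dop1R1 to 2.57e-34 for Dop2R). Of all genes tested, 81.5% did so. Each receptor had its lowest level in MB477 naive flies, with no overlap with any other group. The highest group mean exceeded that lowest one 4.59-fold for Dop1R2, 3.69-fold for Dop1R1, 3.26-fold for Dop2R and 2.41-fold for DopEcR; with the MB477 naive group left out, the span was 2.27-fold, 1.84-fold, 1.78-fold and 1.43-fold in the same order of genes.

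Dop1R1 was highest in MB131 RNAi naive flies, at 195 ± 3.65 CPM (mean ± SD, n = 3, as throughout), clear of every other group. From MB131 naive flies down to MB477 RNAi activated flies, 7 groups formed a run in which each neighbour overlapped the next library by library. MB477 activated and MB477 naive flies lay below that run, at 106 ± 9.36 and 52.8 ± 1.49 CPM. Those groups were also the lowest of Dop1R2: 149.8 ± 7.18 CPM in MB477 RNAi activated flies, 89.9 ± 6.37 in MB477 activated flies and 44.5 ± 2.12 in MB477 naive flies. Its top 5 groups, from 204 ± 18.1 CPM without CsChrimson after activation to 186 ± 6.24 CPM in MB131 RNAi naive flies, overlapped from neighbour to neighbour.

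Dop2R and DopEcR shared another top group, but not the order below it. Both were highest in MB477 RNAi naive flies, at 100.1 ± 7.28 and 501 ± 10.3 CPM, clear of the next group. The next 7 groups of Dop2R lay between 82.9 and 70.3 CPM and each overlapped its neighbour. DopEcR was better resolved, since its coefficient of variation within groups had a median of 2.42%, against 4.78% to 6.43% for the other receptors: MB131 RNAi activated flies, at 428 ± 10.9 CPM, were clear of MB131 activated flies, at 393 ± 9.03 CPM, and MB131 naive flies were near the low end at 351 ± 9.44 CPM.

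**Figure D1:**
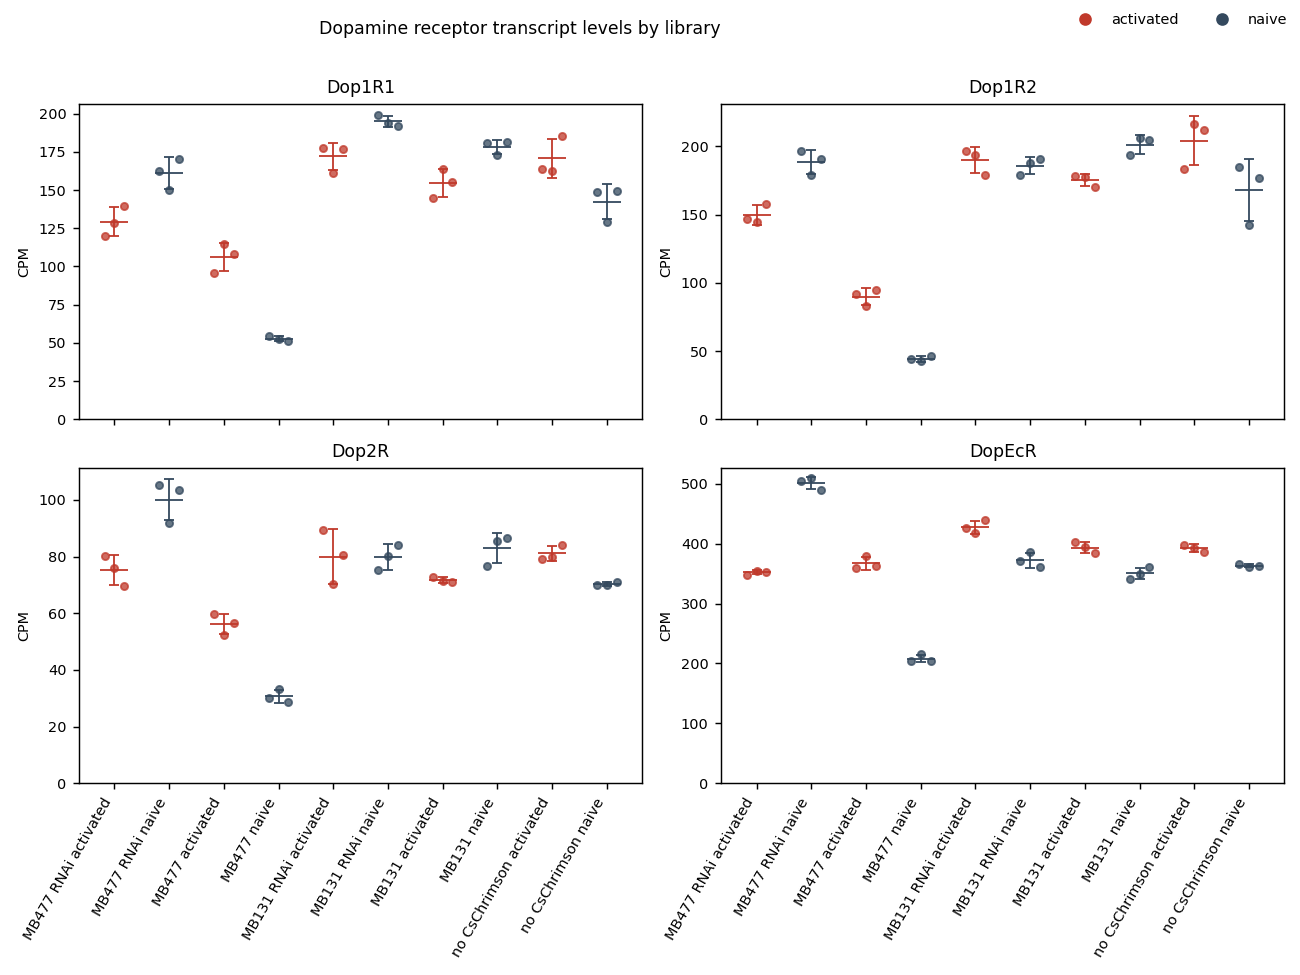
Levels of the 4 receptor genes (vertical axes, CPM from 0) in the 10 groups (horizontal axes); points are libraries, long dashes group means and error bars SD (n = 3), red for activated and dark blue for naive. MB477 naive flies are lowest in every panel, and MB477 RNAi naive flies are highest for Dop2R and DopEcR.

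Per kilobase of annotated exon, DopEcR had the highest level of the receptors in every group, from 48.5 to 117 CPM per kb. Dop1R2 followed with 8.61 to 39.5 CPM per kb. Dop1R1, with 3.63 to 13.4, and Dop2R, with 4.70 to 15.3, lay close together on this scale. These lengths count every annotated exon, so a gene that uses only part of its exons is understated.

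In MB131 flies, activation went with lower Dop1R1, Dop1R2 and Dop2R and with higher DopEcR. Dop1R1 had 145, 164 and 155 CPM in activated libraries, against 180.5, 173 and 182 CPM in naive libraries. Dop1R2 had 178, 178 and 170.2 CPM in activated and 194, 206 and 204 CPM in naive libraries. All activated libraries lay below all naive ones for both D1-like receptors. Dop2R had 72.8, 71.5 and 71.0 CPM in activated and 76.8, 85.6 and 86.4 CPM in naive libraries, again without overlap. DopEcR ran the other way, with 402, 394 and 384 CPM in activated libraries, all above the 342, 350 and 360.5 CPM of naive libraries.

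On the log2 scale Dop1R1 fell by 0.21 ± 0.059 (SE; adjusted p = 0.00518), Dop1R2 fell by 0.20 ± 0.061 (adjusted p = 0.0105) and Dop2R fell by 0.21 ± 0.073 (adjusted p = 0.0262), all by edgeR. DopEcR rose by 0.16 ± 0.042 (adjusted p = 0.00131). All 4 receptors were thus called, where 24.5% of all genes were. The Dop2R call was lost without any one of 5 of the 6 libraries (all but naive 1), that of Dop1R2 without naive 2 or activated 3, and that of Dop1R1 without activated 1; these adjusted p ran up to 0.115, 0.0714 and 0.0836. The DopEcR call held without each library.

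Markers moved in the same comparison. Of 10 Kenyon cell markers 6 fell and none rose, and their sum was 3436 ± 110 CPM in activated flies and 3977 ± 144 CPM in naive flies. All 11 photoreceptor markers rose, as did all 6 tested fat body markers, while all 7 tested muscle markers fell. Photoreceptor markers also rose in the other 4 activation comparisons. All 11 rose for MB131 RNAi flies and for flies without CsChrimson, 10 for MB477, where 1 fell, and 7 for MB477 RNAi flies. The part of these markers in the receptors' changes was not tested. Counted against the Kenyon cell marker sum, a scale chosen after the data had been seen, the 3 receptors that fell overlapped between the groups: Dop1R1 had 45.0 ± 3.50 counts per 1000 marker counts in activated flies and 44.9 ± 1.78 in naive flies, Dop1R2 51.1 ± 0.577 and 50.7 ± 1.38, and Dop2R 20.9 ± 0.425 and 20.8 ± 0.867. DopEcR had 114 ± 1.07 per 1000 in activated flies against 88.2 ± 0.855 in naive flies, with no overlap. Against 10 pan-neuronal genes (elav, nSyb, brp and others) the order of the CPM returned, with activated to naive ratios of 0.820 for Dop1R1, 0.824 for Dop1R2, 0.819 for Dop2R and 1.06 for DopEcR. In bulk nuclei, fewer Kenyon cell nuclei and less RNA per nucleus cannot be told apart.

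With Kdm4B RNAi in MB131, the activated flies again had lower Dop1R1 and higher DopEcR. Dop1R1 had 177, 161 and 177 CPM in activated and 199, 194 and 192 CPM in naive libraries, and fell by 0.18 ± 0.058 on the log2 scale (adjusted p = 0.0122). DopEcR had 425, 418 and 439 CPM in activated and 371, 386 and 361 CPM in naive libraries, and rose by 0.20 ± 0.042 (adjusted p = 5.77e-05). Neither pair overlapped. Dop1R2 had 197, 194 and 179 CPM in activated and 179, 188 and 191 CPM in naive libraries, a change of 0.031 ± 0.061, adjusted p = 0.764. Dop2R had 89.4, 70.2 and 80.4 CPM in activated and 75.1, 80.2 and 84.2 CPM in naive libraries, a change of 0.0051 ± 0.072, adjusted p = 0.973 in edgeR. Both overlapped between the groups. So 2 of the 4 receptors were called, where 26.8% of all genes were. The Dop1R1 call was lost without naive 1 (adjusted p = 0.0549) or activated 2 (0.113). Here the Kenyon cell marker sum was 3886 ± 92.9 CPM in activated and 3849 ± 147 CPM in naive flies; 1 of its 10 genes rose and 2 fell. All 7 tested muscle markers fell (median log2 change -0.98) and all 6 tested fat body markers rose (1.23). Against 1000 Kenyon cell marker counts, Dop1R1 was lower after activation (44.24 ± 1.43 and 50.76 ± 2.87), unlike in MB131 flies without RNAi. DopEcR was higher (110 ± 2.75 and 96.9 ± 5.85). Neither overlapped, while Dop1R2 and Dop2R did.

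In MB477 flies without RNAi all 4 receptors rose with activation, by between 0.82 and 1.02 on the log2 scale. Dop1R1 had 96.1, 114 and 108 CPM in activated and 54.4, 52.6 and 51.4 CPM in naive libraries, a change of 1.01 ± 0.068, adjusted p = 6.18e-25. Dop1R2 had 91.7, 82.8 and 95.1 CPM in activated and 44.2, 42.5 and 46.7 CPM in naive libraries, a change of 1.02 ± 0.074, adjusted p = 7.47e-21. Both D1-like receptors were higher in each activated library than in any naive one. Dop2R had 59.7, 52.5 and 56.7 CPM in activated and 30.1, 33.2 and 28.8 CPM in naive libraries, a change of 0.87 ± 0.084, adjusted p = 1.86e-16. DopEcR had 359, 379.9 and 362 CPM in activated and 204, 215 and 205 CPM in naive libraries, a change of 0.82 ± 0.043, adjusted p = 3.34e-32. No groups overlapped, all p-values are edgeR's, and 31.8% of all genes were called as higher in this comparison.

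This comparison rests on the MB477 naive libraries that stood apart, and 8 of 10 Kenyon cell markers rose with the receptors while 2 fell; the marker sum was 2309 ± 41.4 CPM in activated and 1488 ± 25.3 CPM in naive flies. All 6 tested fat body markers rose (median log2 change 1.09), and of 7 tested muscle markers 4 fell and 1 rose. The median log2 change of the 10 Kenyon cell markers was 0.97, and that of the 4 receptors 0.94. Among these markers ey was at 226 CPM in activated and 342 CPM in naive flies, and Fas2 at 226 and 294 CPM. Per 1000 Kenyon cell marker counts the ratio of activated to naive flies was 1.30 for Dop1R1, 1.30 for Dop1R2, 1.18 for Dop2R and 1.14 for DopEcR, each without overlap. Per 1000 pan-neuronal counts the ratios were 1.92, 1.92, 1.75 and 1.68 in the same order of genes. Of the 10 pan-neuronal genes 7 rose and 3 fell, with a median log2 change of 0.83. Their sum was 8071 ± 193 CPM in activated and 7695 ± 259 CPM in naive flies. Its largest members in naive flies, para and Rdl, had 2808 and 1990 CPM there and 1653 and 1045 CPM in activated flies. Ratios to the sum thus differ from ratios to its typical gene.

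With Kdm4B RNAi in MB477 the direction was the opposite, and all 4 receptors fell with activation. Dop1R1 had 120.1, 129 and 139 CPM in activated and 162, 150 and 171 CPM in naive libraries, a change of -0.31 ± 0.061, adjusted p = 1.58e-05. Dop1R2 had 147, 144 and 158 CPM in activated and 197, 179 and 190.5 CPM in naive libraries, a change of -0.33 ± 0.063, adjusted p = 1.15e-05. Both D1-like receptors were lower in each activated library than in any naive one. Dop2R had 80.4, 76.0 and 69.7 CPM in activated and 105, 91.7 and 103 CPM in naive libraries, a change of -0.41 ± 0.073, adjusted p = 2.24e-06. DopEcR changed most, with 348, 355 and 353 CPM in activated and 504, 509 and 489 CPM in naive libraries, a change of -0.51 ± 0.042, adjusted p = 4.74e-19. These are edgeR's tests, and 13.1% of all genes were called as lower. Of 10 Kenyon cell markers 8 fell and 1 rose, while all 7 tested muscle markers (median log2 change 0.39) and all 6 tested fat body markers (0.63) rose. Per 1000 Kenyon cell marker counts, Dop1R1, Dop1R2 and Dop2R of activated and naive flies overlapped, with ratios of 1.02, 1.01 and 0.959, while DopEcR had 123 ± 3.88 in activated and 138 ± 5.21 in naive flies, a ratio of 0.893 without overlap.

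Flies without CsChrimson also had higher receptor levels in CPM after the activation treatment. Dop1R1 had 164, 163 and 186 CPM in activated and 148, 129 and 149 CPM in naive libraries, a change of 0.26 ± 0.060, adjusted p = 0.000398. Dop1R2 had 184, 217 and 212 CPM in activated and 185, 142 and 177 CPM in naive libraries, a change of 0.28 ± 0.061, adjusted p = 0.00025. Only Dop1R2 overlapped between the groups, since its activated library 1 lay just below naive library 1. Dop2R had 79.2, 79.9 and 84.2 CPM in activated and 69.8, 70.1 and 71 CPM in naive libraries, a change of 0.21 ± 0.074, adjusted p = 0.0332. DopEcR had 398, 393 and 386 CPM in activated and 367, 361 and 362 CPM in naive libraries, a change of 0.11 ± 0.042, adjusted p = 0.0477. By edgeR all 4 passed, as higher, where 11.1% of all genes did. The DopEcR call was lost without any one of the 6 libraries and the Dop2R call without any but activated 1, with adjusted p up to 0.185 and 0.129 over all alternatives, while Dop1R1 and Dop1R2 held under each. Of the Kenyon cell markers 3 rose and 2 fell, of the pan-neuronal genes 7 rose, and of 7 tested muscle markers 6 fell. Against 1000 pan-neuronal counts, DopEcR was lower after activation (38.73 ± 0.444 and 39.8 ± 0.31), without overlap. Dop1R1, Dop1R2 and Dop2R overlapped between the groups on that scale. Against 1000 Kenyon cell marker counts, Dop1R1 (43.45 ± 1.82 and 38.44 ± 2.3) and Dop2R (20.67 ± 0.126 and 19.04 ± 1.56) were higher. Neither of these overlapped, while Dop1R2 and DopEcR did.

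Whether the response differed from that of flies without CsChrimson was tested as a difference of log2 changes, the response in the line minus the response without CsChrimson. In MB131 it was -0.47 ± 0.084, adjusted p = 2.46e-05 for Dop1R1, -0.48 ± 0.087, adjusted p = 3.97e-05 for Dop1R2 and -0.41 ± 0.10, adjusted p = 0.00404 for Dop2R. For DopEcR it was 0.054 ± 0.059, adjusted p = 0.725, which did not pass. The 3 calls, by edgeR, compare with 3.53% of all genes called as lower, and they held under each of the 19 alternatives run. In MB477 the difference was positive for all 4 receptors, from 0.66 for Dop2R to 0.75 for Dop1R1 (largest adjusted p = 2.92e-07), where 26.6% of all genes were called in that direction. The line of the flies without CsChrimson is not named, so the channel and the line cannot be told apart here.

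For activated flies alone, the authors' deposited table compares both lines with flies without CsChrimson. In the authors' deposited table the log2 fold change of MB477 activated flies was -1.19 for Dop1R2 (adjusted p = 2.02e-59), -0.69 for Dop1R1 (2.86e-20), -0.53 for Dop2R (4.37e-10) and -0.10 for DopEcR (0.0364). For MB131 activated flies the authors' deposited table gives -0.22 for Dop1R2 (adjusted p = 0.0033), -0.15 for Dop1R1 (0.111), -0.18 for Dop2R (0.0839) and 0.0004 for DopEcR (0.995).

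**Figure D2:**
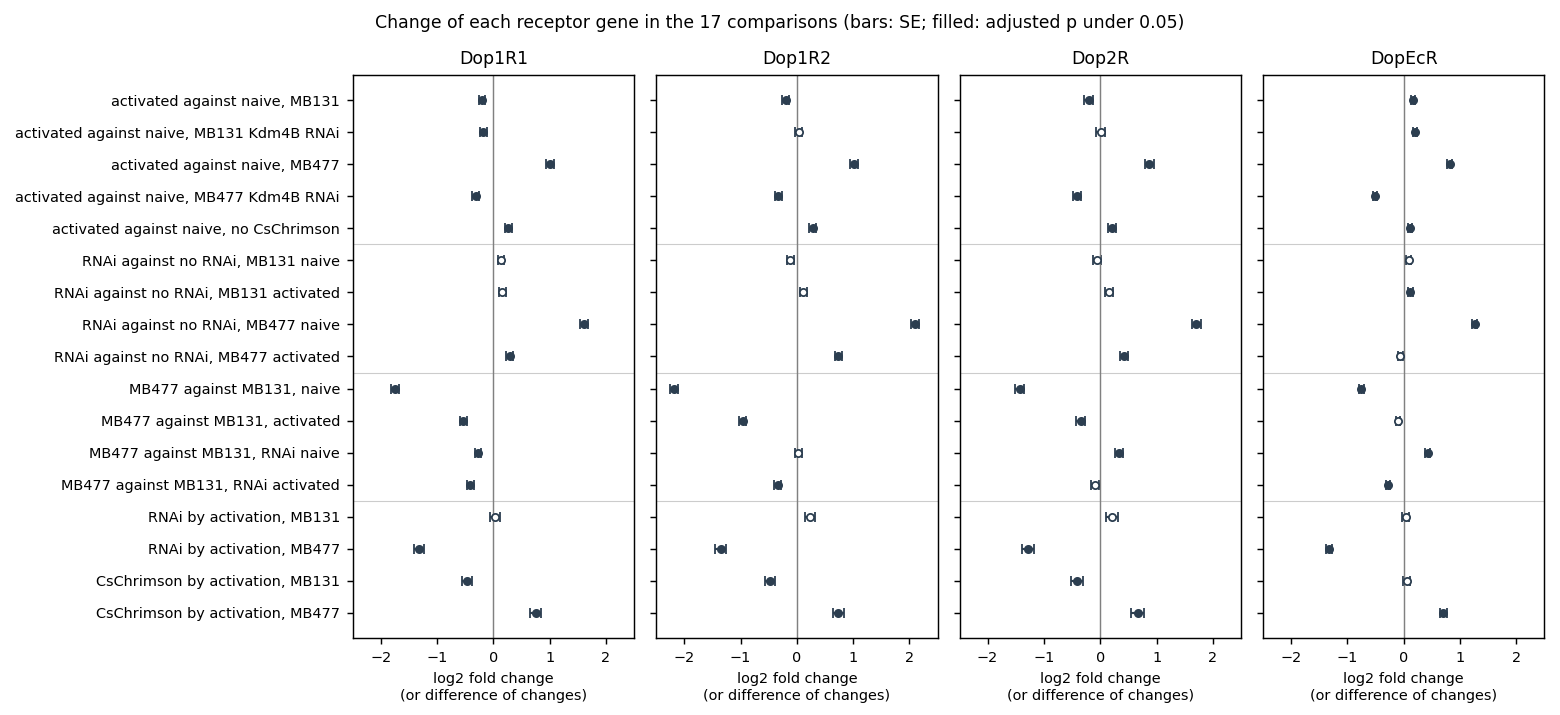
Log2 fold change of each receptor gene, or difference of 2 log2 fold changes for the lowest 4 rows, in the 17 comparisons; bars are SE and filled points have an adjusted p under 0.05 in edgeR. The point of DopEcR lies on the other side of 0 from all the other receptors in MB131 activation, in the comparison of activated flies with and without RNAi in MB477, and in the difference of responses between MB131 flies and flies without CsChrimson.

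The next comparison asks how receptor levels differed with RNAi against Kdm4B, the subject of the study. In activated MB477 flies RNAi went with higher Dop1R2, Dop2R and Dop1R1. Dop1R2 was at 149.8 ± 7.18 CPM with RNAi and 89.9 ± 6.37 CPM without it, a change of 0.74 ± 0.066, adjusted p = 2.03e-15. Dop2R was at 75.4 ± 5.34 CPM with RNAi and 56.3 ± 3.60 CPM without it, a change of 0.42 ± 0.076, adjusted p = 6.48e-06. Dop1R1 was at 129 ± 9.66 CPM with RNAi and 106 ± 9.36 CPM without it, a change of 0.29 ± 0.063, adjusted p = 0.000193. None of these groups overlapped. DopEcR was at 352 ± 3.38 CPM with RNAi and 367 ± 11.4 CPM without it, a change of -0.059 ± 0.042, adjusted p = 0.359, which did not pass. The 3 calls, by edgeR, stand against 11.9% of all genes called as higher. Of the Kenyon cell markers 7 rose and none fell, while all 6 tested fat body markers, 8 of 11 photoreceptor and 6 of 7 tested muscle markers fell. Per 1000 Kenyon cell marker counts, Dop1R2 had 52.3 ± 1.83 with RNAi and 38.9 ± 2.14 without it, with no overlap. DopEcR had 123 ± 3.88 and 159 ± 7.25, also with no overlap. Dop2R, at 26.4 ± 2.87 and 24.4 ± 1.42, and Dop1R1, at 45.1 ± 1.69 and 46.0 ± 4.33, overlapped between the groups.

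In naive MB477 flies all 4 receptors were higher with RNAi, by 2.09 ± 0.071 for Dop1R2, 1.70 ± 0.081 for Dop2R, 1.61 ± 0.067 for Dop1R1 and 1.27 ± 0.043 for DopEcR (log2 ± SE, largest adjusted p = 8.24e-36 in edgeR). This comparison again uses the MB477 naive libraries, 30.6% of all genes were called as higher in it, and 9 of 10 Kenyon cell markers rose while 1 fell. All 7 tested muscle markers fell (median log2 change -1.03), and of 6 tested fat body markers 3 rose and 2 fell. Against 1000 Kenyon cell marker counts, DopEcR overlapped, at 137.8 ± 5.21 with RNAi and 139.9 ± 3.28 without it. Dop1R2 (51.96 ± 1.7 and 29.88 ± 1.51), Dop1R1 (44.28 ± 2.05 and 35.52 ± 1.56) and Dop2R (27.52 ± 1.53 and 20.64 ± 1.4) were higher with RNAi. None of these 3 overlapped. The change of the response with RNAi, the response with RNAi minus that without, was -1.28 to -1.35 for the receptors in MB477 and passed for all 4 as lower, where 26.9% of all genes did.

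In MB131 the differences with RNAi were small. No receptor passed in naive flies by edgeR, where 4.92% of all genes were higher and 6.12% lower; 2 of them, Dop1R1 and DopEcR, had an unadjusted p under 0.05, and DESeq2 called 1, DopEcR. The log2 changes were 0.13 ± 0.058, adjusted p = 0.158 for Dop1R1 and 0.087 ± 0.042, adjusted p = 0.201 for DopEcR by edgeR, -0.12 for Dop1R2 and -0.055 for Dop2R. Library by library, Dop1R1, DopEcR and Dop1R2 did not overlap between RNAi and no RNAi, so the absence of a call there does not show equal levels. In activated MB131 flies DopEcR alone passed, at 428 ± 10.9 CPM with RNAi and 393 ± 9.03 CPM without it (0.12 ± 0.042, adjusted p = 0.041 by edgeR), where 5.84% of all genes were called as higher. Of the Kenyon cell markers 5 rose there, and all 7 tested muscle markers fell. Leaving out any one of the 6 libraries ended that call, with adjusted p from 0.0511 to 0.222. For none of the 4 did the response to activation differ with RNAi in MB131 by edgeR (largest difference 0.23 ± 0.086, adjusted p = 0.112, for Dop1R2), where 3.26% of all genes were called as higher and 2.79% as lower; 2 receptors, Dop1R2 and Dop2R, had an unadjusted p under 0.05 and DESeq2 called none.

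Between the lines, activated MB477 flies had lower Dop1R2, Dop1R1 and Dop2R than activated MB131 flies. The log2 change was -0.96 ± 0.064, adjusted p = 6.44e-22 for Dop1R2, -0.54 ± 0.061, adjusted p = 1.58e-12 for Dop1R1 and -0.35 ± 0.075, adjusted p = 7.42e-05 for Dop2R, by edgeR. DopEcR, at -0.10 (adjusted p = 0.0627), missed the threshold although its libraries did not overlap, and it passed with relative log expression factors, with total counts, with only the compared groups, in DESeq2 and without MB477 activated 2 (adjusted p from 0.00306 to 0.0374). Of all genes 14.8% were called as lower here. With RNAi the lines differed otherwise. In naive RNAi flies DopEcR (0.43 ± 0.042, adjusted p = 3.02e-15) and Dop2R (0.33 ± 0.071, adjusted p = 0.000142) were higher in MB477, Dop1R1 was lower (-0.28 ± 0.059, adjusted p = 9.93e-05) and Dop1R2 overlapped (0.025 ± 0.061, adjusted p = 0.838), where 22.8% of all genes were called. In activated RNAi flies Dop1R1, Dop1R2 and DopEcR were lower in MB477, with log2 changes of -0.41, -0.34 and -0.28 (largest adjusted p = 6.31e-06), and Dop2R did not pass (-0.091 ± 0.074, adjusted p = 0.389), where 15.6% of all genes were called as lower. Naive flies without RNAi had all 4 receptors lower in MB477, from -0.75 for DopEcR to -2.18 for Dop1R2, where 31.6% of all genes were called as lower.

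Markers differed between the lines as well. In activated flies all 10 Kenyon cell markers were lower in MB477 (median log2 change -0.64), while all 6 tested fat body markers (0.83) and 6 of 7 tested muscle markers (0.49) were higher. In activated RNAi flies 9 of 10 Kenyon cell markers were lower (-0.43), all 7 tested muscle markers higher (1.16) and 5 of 6 fat body markers higher (0.43). In naive flies without RNAi 9 of 10 Kenyon cell markers were lower and 1 higher (-1.58), with 6 of 7 muscle and all 6 fat body markers higher. In naive RNAi flies, where Dop2R and DopEcR were higher in MB477, 2 Kenyon cell markers were lower and 1 higher, 5 of 6 fat body markers were higher (1.10) and 5 of 7 muscle markers lower. Relative to 1000 Kenyon cell marker counts, Dop2R was higher in activated MB477 than activated MB131 flies (24.4 ± 1.42 and 20.9 ± 0.425). So was DopEcR (159 ± 7.25 and 114 ± 1.07), both without overlap. Dop1R1 overlapped, and Dop1R2 was lower in MB477 (38.9 ± 2.14 and 51.1 ± 0.577). Naive flies without RNAi had higher DopEcR in MB477 on this scale (139.9 ± 3.28 and 88.2 ± 0.855). Dop2R overlapped there, and Dop1R1 and Dop1R2 were lower. The part of these markers in the receptors' differences was not tested.

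**Figure D3:**
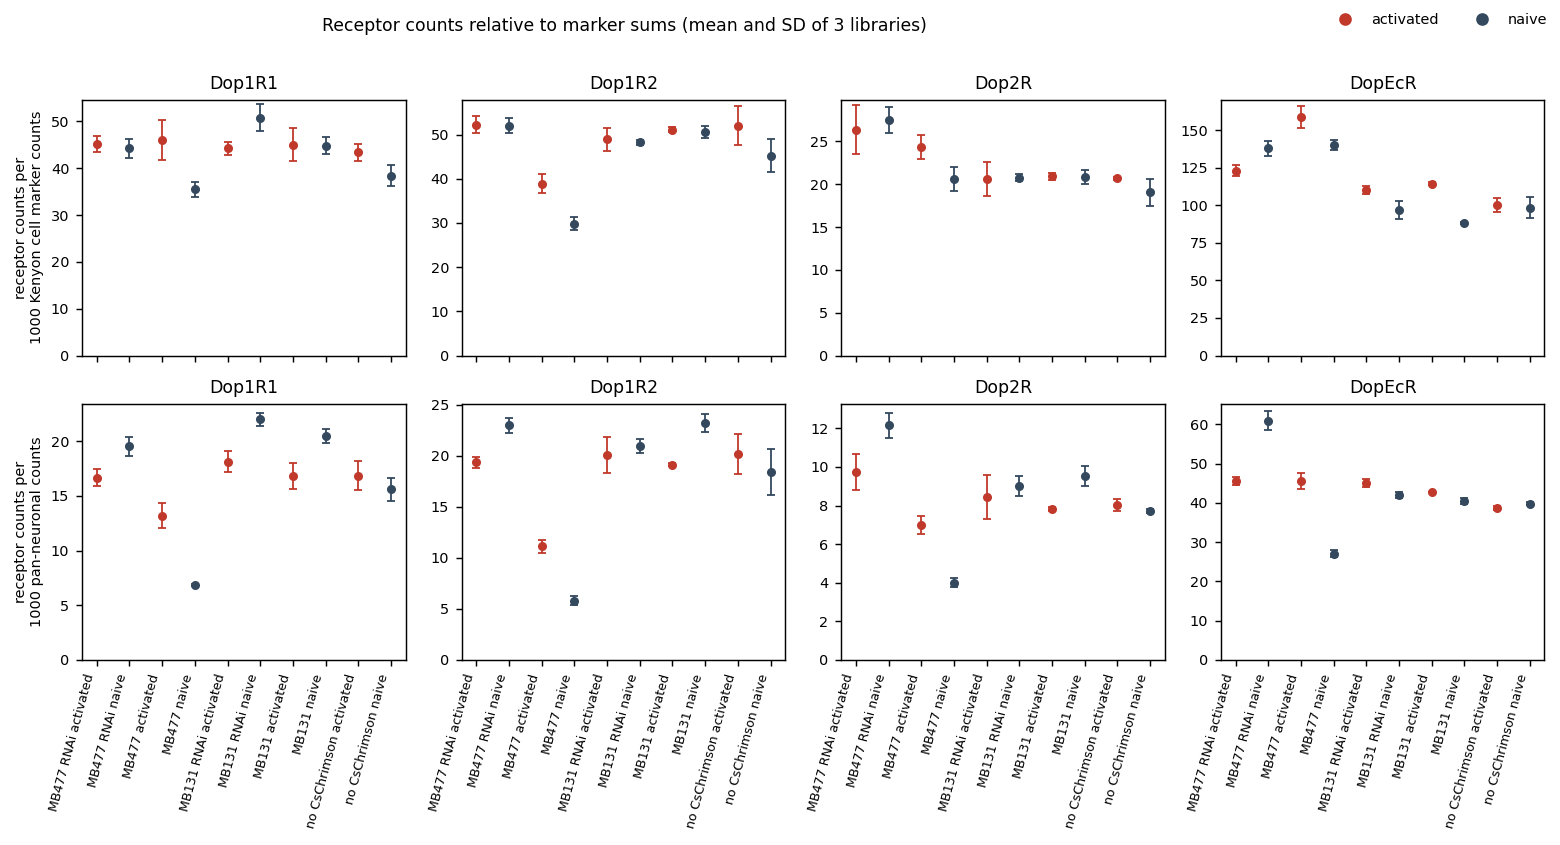
Counts of each receptor gene per 1000 counts of 10 Kenyon cell markers (top row) and of 10 pan-neuronal genes (bottom row) in the 10 groups; points are means and bars SD of 3 libraries, red for activated and dark blue for naive. In the top row MB131 activated and naive flies lie close together for Dop1R1, Dop1R2 and Dop2R and apart for DopEcR; in the bottom row MB477 naive flies are lowest for every receptor.

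The make-up of the receptor counts shifted with the groups. DopEcR made up 49.5 ± 0.805% of the 4 genes' counts in MB131 activated flies and 43.1 ± 0.155% in MB131 naive flies, and 49.2 ± 1.19% and 44.7 ± 1% in the same states with RNAi. In MB477 its share was 59.2 ± 1.08% in activated and 61.9 ± 0.675% in naive flies, and 49.8 ± 0.724% and 52.7 ± 1.80% with RNAi. Without CsChrimson it was 46.3 ± 1.94% in activated and 48.9 ± 2.16% in naive flies. Dop1R2 moved the other way, with its lowest shares in MB477 activated (14.5 ± 1.19%) and MB477 naive flies (13.2 ± 0.860%) and its highest in MB131 naive flies (24.8 ± 0.469%). Dop2R kept 9.03% to 10.7% in every group. These shares depend on gene length and sum to a fixed total, so the rise of one is in part the fall of another.

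**Figure D4:**
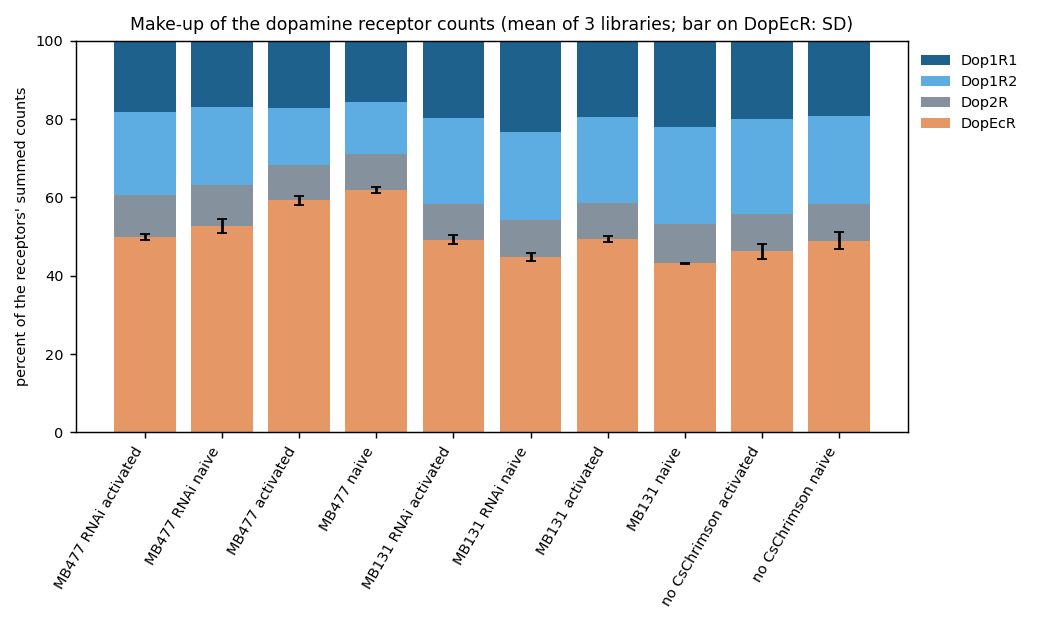
Share of each receptor gene in the summed counts of the 4 (vertical axis, percent) in the 10 groups; segments are means of 3 libraries and the error bar on the DopEcR segment is its SD. DopEcR takes 43.1% in MB131 naive flies and 61.9% in MB477 naive flies, the ends of its range.

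Over the 30 libraries the log2 CPM of the receptors ran together, with Pearson r from 0.822 (Dop1R2 and DopEcR) to 0.966 (Dop1R1 and Dop1R2). Without the MB477 naive libraries, over the other 27, r was lower, at 0.865 for Dop1R1 with Dop1R2, 0.774 for Dop1R2 with Dop2R, 0.655 for Dop1R1 with Dop2R and 0.564 for Dop2R with DopEcR, and 0.277 for Dop1R2 and 0.237 for Dop1R1 with DopEcR. These values are descriptions over libraries that share groups and scaling. Among all genes tested, those most like Dop1R1 over the 30 libraries were rut (r = 0.98), the adenylyl cyclase needed for odour learning, GlcAT-P (0.979) and CG8248 (0.973). Those most like Dop1R2 were CG32204 (0.986), rut (0.985) and CG30158 (0.982), and those most like Dop2R were vex (0.95), amon (0.947) and rut (0.947). DopEcR had a separate set, CG4577 (0.972), CG44247 (0.963) and CG15765 (0.943), of which the first pair also led over the 27 libraries (0.892 and 0.869). For the other receptors the lists changed over the 27 libraries: Acsx3 (0.932; 0.276 over the 30), rut (0.91) and GlcAT-P (0.909) were most like Dop1R1. Sol1 (0.963), Nep1 (0.962) and Hr51 (0.955) were most like Dop1R2. Pxn (0.873), Gfrl (0.866) and sas (0.86) were most like Dop2R, for which vex, amon and rut were at 0.824, 0.752 and 0.75.

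The genes around the receptors were taken from lists of the dopamine pathway. Of 8 genes for dopamine synthesis, packaging and clearance, 3 rose and 4 fell with activation in MB131, with a median log2 change of -0.16 against 0.0017 for all genes. ple, which encodes tyrosine hydroxylase, the rate-limiting enzyme of dopamine synthesis, was at 168 ± 2.21 CPM in activated and 109.6 ± 1.21 CPM in naive MB131 flies. It rose with activation by 0.62 ± 0.056 in MB131 without RNAi, 0.72 ± 0.056 in its RNAi flies, 0.39 ± 0.055 in MB477 and 0.43 ± 0.056 without CsChrimson, and it fell by 0.58 ± 0.054 in MB477 with RNAi. Pu, whose GTP cyclohydrolase makes the cofactor of tyrosine hydroxylase, fell in each of these 5 comparisons, from -0.13 in MB477 to -0.71 in MB131 with RNAi. t (tan), which releases dopamine from its conjugate with beta-alanine, rose by 0.57 in MB131, 0.40 in MB131 RNAi flies, 1.80 in MB477 and 0.26 without CsChrimson. It did not pass in MB477 RNAi flies (-0.031 ± 0.056, adjusted p = 0.737 by edgeR). The counterpart e (ebony), which forms that conjugate, fell in both lines with and without RNAi, with log2 changes of -0.27 in MB131, -0.77 in its RNAi flies, -1.06 in MB477 and -0.999 in its RNAi flies, and rose by 0.41 without CsChrimson.

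The counts of these lists stand against 24.5% of all genes called in either direction with activation in MB131, 59.5% in MB477 and 28.7% in MB477 with RNAi. Of 15 G proteins and effectors, 2 rose and 4 fell with activation in MB131, 10 rose and 4 fell in MB477, and 1 rose and 6 fell in MB477 with RNAi. The rut transcript fell by 0.26 in MB131 (adjusted p = 0.0126), rose by 1.32 in MB477 and fell by 0.41 in MB477 with RNAi; rut also stands in the Kenyon cell marker list. Pka-C1, the catalytic subunit of protein kinase A, fell by 0.16 in MB131 and fell by 0.43 in MB477 with RNAi. In MB477 without RNAi, where rut rose, Pka-C1 was among the 4 genes that fell. It was at 282.1 ± 11.8 CPM in activated and 307.5 ± 18.3 CPM in naive flies, with overlap. The genes that rose in MB131 were Ggamma1 (0.23) and Galphao (0.21). Of the other amine receptors, 3 of 13 rose and 3 fell in MB131, with Oamb, the octopamine receptor of the mushroom body, at -0.20 and the serotonin receptors 5-HT2B at 0.65 and 5-HT7 at 0.50. In MB477 8 rose and 4 fell, and in MB477 with RNAi 1 rose and 3 fell, among them Octbeta1R (-0.44). Of 7 genes listed for forgetting (scrib, Rac1, Pak and others), 1 rose and 1 fell in MB131 and 5 rose and 1 fell in MB477. The scaffold gene scrib changed by -0.042 ± 0.044, adjusted p = 0.564 in MB131, which did not pass, and rose by 0.30 ± 0.045, adjusted p = 8.14e-09 in MB477, by edgeR.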

How the data were processed

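STAR, HTSeq, DESeq2 and the build dm6 are named, per the submitters' processing notes; for versions, strand and reads with several matches the sources used here give no setting. The authors deposited whole-number counts of reads per gene (17559 genes, 30 libraries). A deposited table of the authors' comparisons gives log2 fold changes and adjusted p-values; its column for activated MB131 flies runs no RNAi minus RNAi, unlike that for MB477, and was not printed. Genes were matched by FlyBase identifier, and exon lengths come from the Ensembl annotation of the dm6 assembly.

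Counts were analysed in R 4.3.3 with edgeR 4.0.16: filterByExpr (minimum count 10, minimum total 15) kept 11457 genes, TMM scaled the libraries, and 1 model with 10 group means was fitted to the 30 libraries together (robust glmQLFit) and tested with glmQLFTest, two-sided. P-values were adjusted by Benjamini and Hochberg over the genes kept, and those under 0.05 called. SE is the absolute log2 fold change divided by the square root of F. The typical biological coefficient of variation was 6.32%. Likeness used log2 CPM with a prior count of 2. The test was checked on simulated counts. Same-numbered libraries did not deviate together (correlations -0.032 to 0.055 over 39 pairs), so numbers were not used as pairs. No library of a group matched another within sampling noise.

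The members, lists and rules were chosen with earlier results of these data known. The text names the 4 receptors, the 3 genes most like each, and list members among the 3 largest changes past the test in a comparison; a list gene's values in further comparisons, and scrib, were added after their values were seen. Of 108 list entries 107 were matched; AANAT1 was not. Alternatives were other size factors, no filter, DESeq2 1.42.0, only the compared groups, a replicate block, no MB477 naive libraries and each library left out.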

Additional observations from a re-analysis of the deposited data

Results flagged for a closer look

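In 11 cases the response of a receptor gene to activation differed between groups by edgeR's test of the difference itself. With RNAi minus without RNAi in MB477, the difference of log2 changes was -1.32 ± 0.091, adjusted p = 7.98e-24 for Dop1R1, -1.35 ± 0.10, adjusted p = 9.41e-21 for Dop1R2, -1.28 ± 0.11, adjusted p = 1.83e-18 for Dop2R and -1.33 ± 0.060, adjusted p = 2.56e-36 for DopEcR. All 3 libraries of each activated group lay on the same side of their naive group, above it without RNAi and below it with RNAi. For MB477 minus flies without CsChrimson it was 0.75 ± 0.091, adjusted p = 1.3e-11 for Dop1R1, 0.74 ± 0.10, adjusted p = 5.51e-10 for Dop1R2, 0.66 ± 0.11, adjusted p = 2.92e-07 for Dop2R and 0.71 ± 0.060, adjusted p = 1.17e-18 for DopEcR. These 8 values use the MB477 naive libraries, which stood apart in the first principal component, and the part of that distance in these values was not tested. For MB131 minus flies without CsChrimson, Dop1R1 had -0.47 ± 0.084, adjusted p = 2.46e-05, Dop1R2 -0.48 ± 0.087, adjusted p = 3.97e-05 and Dop2R -0.41 ± 0.10, adjusted p = 0.00404. Of 10 Kenyon cell markers 6 fell in MB131, as these 3 receptors did. Without CsChrimson, where the 3 receptors rose, 3 of the markers rose and 2 fell, with a median log2 change of 0.067. The part of the markers in the result was not tested.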

How the results depend on the processing

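Across 68 receptor results, the direction and the side of the threshold were kept in 66 under DESeq2, 66 under relative log expression factors, 62 under total counts, 65 without a filter, 64 with only the compared groups, and 46 of 48 without the MB477 naive libraries; leaving out single libraries kept 468 of 504. The replicate block changed none of the 68, with 4 receptors called in MB131 activation as before; 12 of 30 libraries correlated best with their own number. The number of receptors called without CsChrimson was 4 and became 2 under total counts and 2 to 3 with a library left out; with relative log expression factors, without a filter, without the MB477 naive libraries or with only the compared groups it was 3, as DopEcR lost its call (adjusted p = 0.06, 0.119, 0.0575 and 0.124). In MB131 activation it was 4 and became 2 to 4, and with RNAi 2 and 1 to 2. For RNAi in naive MB131 flies it was 0 and 1 under DESeq2; of all genes 564 rose and 701 fell there, and 824 to 1245 in all were called with a library left out, the lowest without MB131 naive 1. For RNAi in activated MB131 flies it was 1, and 0 under total counts, 0 without a filter, 2 with only the compared groups and 0 to 2 with a library left out. The RNAi by activation count in MB131 was 0, and 1 (Dop1R2) with only the compared groups.

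Signs turned only for changes near 0. In MB131 RNAi activation, Dop1R2 was -0.031 and Dop2R -0.057 under total counts, and Dop2R was -0.011 without a filter, -0.0049 without the MB477 naive libraries and -0.080 to 0.086 with a library left out. With a library left out, Dop1R2 between the lines in naive RNAi flies ran from -0.0056 to 0.061, and Dop1R1 for RNAi by activation in MB131 from -0.027 to 0.059. The causes were not tested. Dropping rut or mub from the Kenyon cell marker sum, tried after seeing the data, left the MB131 ratios within 0.997 to 1.04 for Dop1R1, Dop1R2 and Dop2R and 1.29 to 1.33 for DopEcR. Whether RNAi lowered Kdm4B could not be judged, given its group means of 0.559 to 1.15 CPM and the exon bases it shares with seq and CG17724.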
